A study of Mus musculus with 8 samples.

Results

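This report follows 52 genes of T cell receptor, calcium and NF-kB signalling in mouse CD4 T cells in Th17 culture. They were chosen by symbol from a list of 54 genes, and every one with a probe set annotated to that gene alone was kept, which gave 121 probe sets. Lck and Nfkb1 of the list were not analysed here. In all, 18193 genes were tested. Naive CD4 T cells of C57BL/6 mice were sorted and grown for 48 h in Th17-polarising medium on antibodies to CD3 and CD28, so every group was stimulated through the receptor studied here and no unstimulated cells were measured. Wildtype and RORγt-deficient cells were each cultured with DMSO or with digoxin, which made the 4 groups, with 2 Affymetrix mouse expression arrays each. RORγt is the transcription factor on which the Th17 programme depends, and digoxin is a cardiac glycoside that blocks the Na,K-ATPase. The labels give neither the mutant allele, the dose of digoxin nor the age of the animals. They do not say whether the 2 biological replicates of a group came from separate animals or cultures; the p-values cover only the scatter of the arrays, which may be technical.

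A T cell recognises antigen through the T cell receptor, whose CD3 chains are phosphorylated by Src family kinases and then recruit the kinase ZAP-70. ZAP-70 phosphorylates the adaptors LAT and SLP-76, on which phospholipase C-γ1 produces inositol trisphosphate and diacylglycerol. The former opens the calcium route through STIM1, ORAI1, calcineurin and NFAT, and the latter the Ras route and, through PKC-θ, BCL10 and MALT1, the NF-kB route. Ubiquitin ligases, phosphatases and diacylglycerol kinases damp these signals. In Th17 differentiation the strength of this signal is known to influence the choice of helper fate.

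Every value below is on the log2 scale, relative to the gene's average over the 2 wildtype DMSO arrays; the 2 wildtype DMSO values of a gene are therefore equal and opposite. No absolute level is left in the values. The step size of the stored numbers nevertheless gives the range of a gene's lowest array level before this subtraction, and that level was at least 8 on the RMA log2 scale for 35 of the 52 genes and between 4 and 8 for the other 17. None of the 52 lay under 4, where 32.5% of all genes lay. The αβ T cell markers measured here, Cd3e, Cd4, Cd5 and Lat, were all at 8 or above. Il17a, the signature cytokine of these cells, stood at -2.11 ± 0.12 in RORγt-deficient cells in DMSO (limma adjusted p = 0.00011), and the targeted gene was not analysed here.

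**Figure D1:**
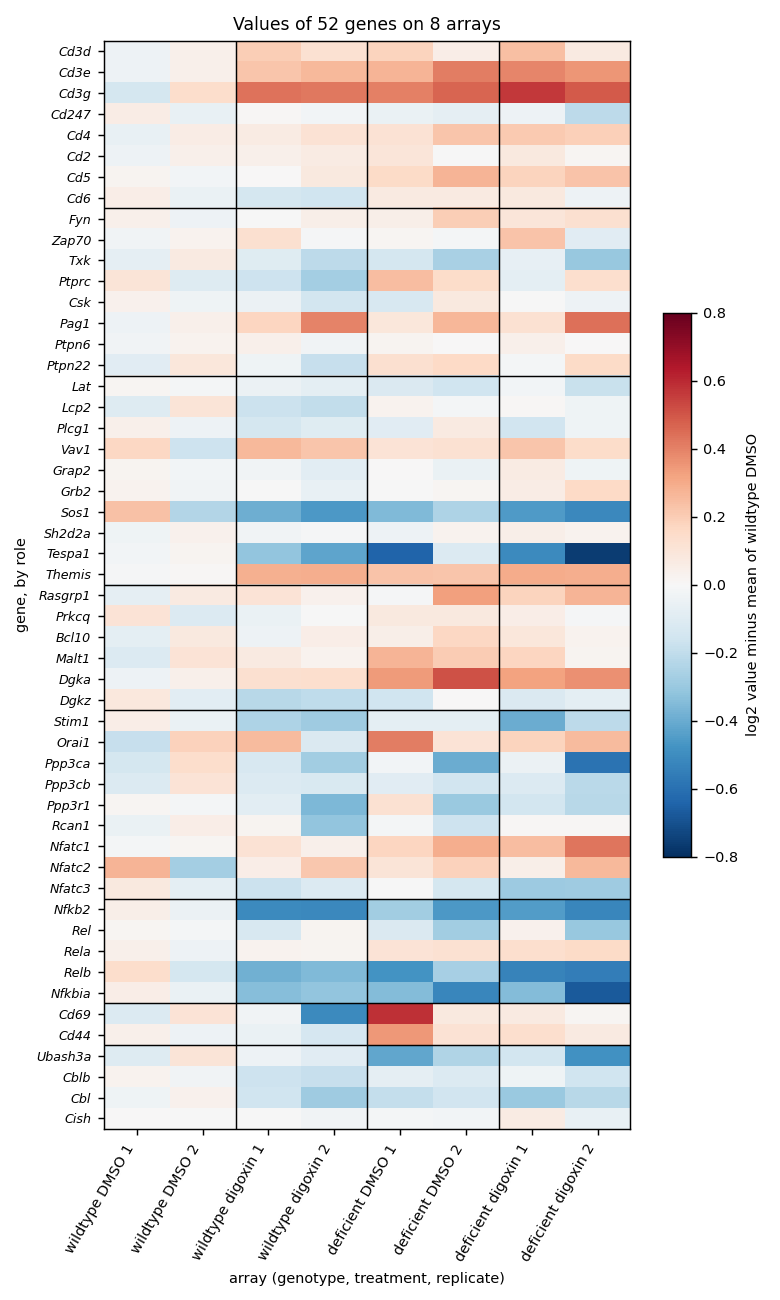
Log2 values of the 52 genes (rows, by role, in the order of the text) on the 8 arrays (columns), relative to the wildtype DMSO average; red is higher and blue lower. Cd3e, Cd3g and Themis are red on all 6 arrays outside wildtype DMSO, and Nfkb2, Relb and Nfkbia are blue on all 6.

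None of the 52 genes passed the test in any of the 5 comparisons. In RORγt deficiency in DMSO limma called 0 of 52 at an adjusted p under 0.05, where 1.05% of all 18193 genes were called, and the smallest adjusted p was 0.125, that of Dgka. At an unadjusted p under 0.05 there were 9 of 52, or 17.3%, against 10.3% of all genes; 4 of the 9 stood above 0 (4.25% of all genes did so) and 5 below (6.08%). With digoxin in wildtype cells limma called 0 of 52 (0.121% of all genes), the smallest adjusted p being 0.202, that of Nfkb2. Here 8 of 52, or 15.4%, had an unadjusted p under 0.05, against 6.99% of all genes; 3 stood above 0 (3.61%) and 5 below (3.39%).

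These 2 comparisons share the wildtype DMSO arrays, so scatter of those arrays moves both differences of a gene the same way. Like signs in the 2 comparisons are therefore not independent. The counts at an unadjusted p depended on which single array was left out. Not every removal is listed here. Without wildtype DMSO array 2, both shares stayed above those of all genes. Without wildtype DMSO array 1 the count for RORγt deficiency was 4 (7.69%, beside 7.41% of all genes) and that for digoxin 3 (5.77%, beside 5.26%), so both shares then lay near those of all genes. Without deficient DMSO array 1 the 6 of 52 genes of RORγt deficiency were a smaller share than the 13.6% of all genes. Without wildtype digoxin array 2 the share for digoxin stayed above that of all genes. Without wildtype digoxin array 1 it lay near that of all genes. Quantile normalisation gave counts of 4 (7.69%, beside 5.08%) for RORγt deficiency and 5 (9.62%, beside 4.06%) for digoxin. When genes with a lowest level under 4 were left out, where none of the 52 lay, there were 8 (15.4%, beside 13.5%) and 9 (17.3%, beside 8.44%). The other shares of all tested genes given here include those genes. The calls over all genes moved as well: the 191 of RORγt deficiency became 17 to 188 without single arrays and 3 after quantile normalisation, and the 22 of digoxin became 6 to 23 and 4. The fewest, 17 and 6, came without wildtype DMSO array 2 and wildtype DMSO array 1.

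For the 1 probe set taken per gene, the arrays bounded how large a change could have been. The bounds below do not cover a gene's other probe sets. Each of the 52 genes had a 95% interval of its difference that lay wholly within 1 log2 unit of 0, that is within 2-fold, in all 5 comparisons, with no adjustment for the number of genes; the same held for 98.7% of all genes in RORγt deficiency in DMSO, 99.5% with digoxin in wildtype cells, 99.8% with digoxin in deficient cells, 98.2% for the difference of the digoxin effects and 99.6% in RORγt deficiency under digoxin. The lowest bound in RORγt deficiency was -0.75, for Tespa1, and the highest 0.76, for Cd69. With digoxin in wildtype cells the bounds reached -0.75 for Nfkb2 and 0.69 for Cd3g. The median difference of the 52 genes was 0.01 in RORγt deficiency and -0.06 with digoxin, beside 0.00 and 0.01 over all genes, and the median size of a difference regardless of sign was 0.14 and 0.12, beside 0.11 and 0.10.

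**Figure D2:**
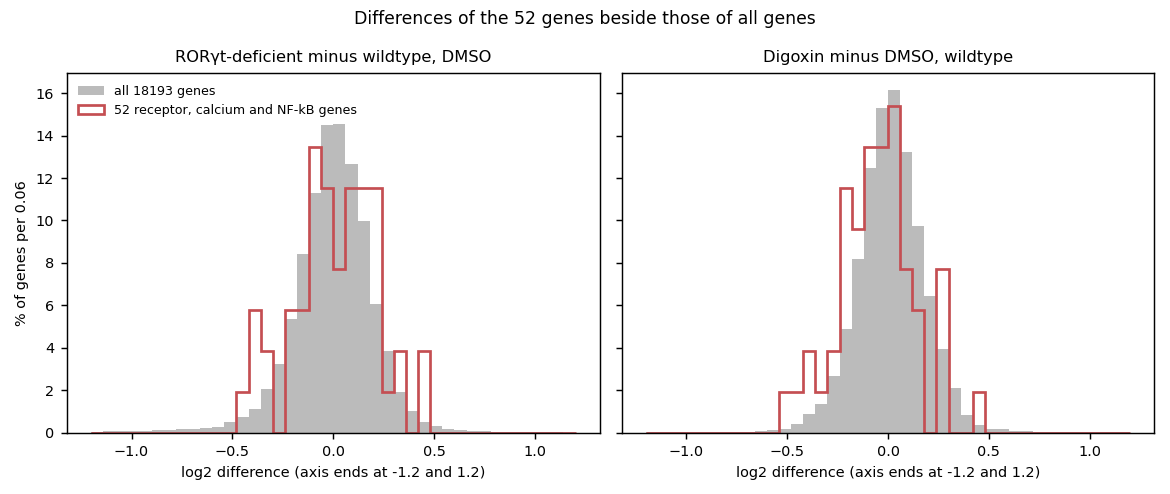
Share of genes (vertical axis, % per bin of 0.06) by log2 difference (horizontal axis, ended at -1.2 and 1.2) for RORγt deficiency in DMSO (left) and digoxin in wildtype cells (right), with all 18193 genes as grey bars and the 52 genes as a red outline. The 52 genes lie between -0.43 and 0.43 on the left and between -0.51 and 0.43 on the right.

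The receptor chains and coreceptors were CD3δ, ε and γ and the ζ chain (Cd247), the coreceptor CD4, the adhesion receptor CD2 and the scavenger-type receptors CD5 and CD6, which restrain signalling. Of these 8 genes 7 stood above 0 in RORγt deficiency in DMSO (median 0.14, from -0.06 to 0.43), and 6 with digoxin in wildtype cells (median 0.07, from -0.15 to 0.43). Cd3g stood at -0.14 and 0.14 on the 2 wildtype DMSO arrays, 0.44 and 0.42 in wildtype digoxin, 0.40 and 0.46 in deficient DMSO and 0.57 and 0.49 in deficient digoxin. All 6 arrays outside wildtype DMSO lay above both wildtype DMSO arrays. The difference was 0.43 ± 0.12 (SE, n = 2 arrays a group, 95% interval 0.17 to 0.70, limma adjusted p = 0.17) in RORγt deficiency and 0.43 ± 0.12 (95% interval 0.17 to 0.69, adjusted p = 0.416) with digoxin in wildtype cells. Cd3e stood at -0.04 and 0.04 on the 2 wildtype DMSO arrays, 0.22 and 0.26 in wildtype digoxin, 0.27 and 0.41 in deficient DMSO and 0.39 and 0.35 in deficient digoxin. Cd3e therefore also lay higher on these 6 arrays than on either control array, with the wildtype digoxin pair the lowest of the 6. Here and for the genes below, the share of all genes with all 6 arrays on 1 side of both controls was not computed. Between 2 groups, no overlap held for 41.8% of all genes in RORγt deficiency in DMSO and 37.7% with digoxin in wildtype cells. Most genes shown array by array were chosen for a small p, which favours such separation. The difference for Cd3e was 0.34 ± 0.10 in RORγt deficiency (95% interval 0.11 to 0.57, limma adjusted p = 0.232) and 0.24 ± 0.10 with digoxin in wildtype cells (0.01 to 0.47, adjusted p = 0.704).

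Cd3d, the third CD3 gene and a neighbour of Cd3e and Cd3g on the chromosome, stood at 0.12 ± 0.11 in RORγt deficiency and 0.16 ± 0.11 with digoxin. Cd247 stood at -0.06 ± 0.11 and -0.01 ± 0.11, and neither was called. The 4 probe sets of Cd247 ranged from -0.06 to 0.18 in RORγt deficiency and from -0.01 to 0.22 with digoxin, and the one taken was the lowest in both. Cd4 stood at -0.06 and 0.06 on the 2 wildtype DMSO arrays, 0.07 and 0.12 in wildtype digoxin, 0.12 and 0.22 in deficient DMSO and 0.21 and 0.19 in deficient digoxin. For this coreceptor gene, which defines the sorted cells, the 6 arrays lay above both control arrays by small steps. Its difference was 0.17 ± 0.10 in RORγt deficiency (-0.06 to 0.40, limma adjusted p = 0.644), and 0.09 ± 0.10 with digoxin in wildtype cells (-0.14 to 0.32, adjusted p = 0.886). The other probe set of Cd4 stood at 0.37 and 0.32 in these comparisons. Cd5, Cd2 and Cd6 stood at 0.21 ± 0.10, 0.05 ± 0.10 and 0.07 ± 0.10 in RORγt deficiency.

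Because each array held RNA of a whole culture, more cells of a type and more RNA per cell cannot be told apart. Marker lists of other cells were read beside the CD3 values as sums over the measured markers of a list on each array. The 2 CD8 T cell markers, Cd8a and Cd8b1, summed to between -0.05 and 0.05 on the wildtype DMSO arrays, to 0.10 and 0.13 with digoxin in wildtype cells, to 0.42 and 0.48 in deficient DMSO, and to 0.14 and 0.42 in deficient digoxin. The 4 B cell markers measured summed to between -0.41 and 0.41 in wildtype DMSO and between 0.21 and 1.13 on the other 6 arrays, the 6 myeloid markers to between -0.10 and 0.10 and between -0.15 and 1.58, and the 3 NK cell markers to between -0.17 and 0.17 and between 0.38 and 1.11. The 2 gamma delta T cell markers lay between -0.18 and 0.18 in wildtype DMSO and 0.01 and 0.30 elsewhere, and the 2 erythroid markers between -0.20 and 0.20 and -0.34 and 0.56. Limma called 0 of the 22 markers, Cd3e among them, in any comparison. At an unadjusted p under 0.05 there were 5 with digoxin in wildtype cells (22.7%, all above 0, where 3.61% of all genes stood), Cd3e, Adgre1, Cd79a, Csf1r and Eomes, and 2 in RORγt deficiency in DMSO (9.09%, both above 0, where 4.25% of all genes stood), Cd3e and Klra8, and 1 in each of the other 3 comparisons, Csf1r, Eomes and Eomes in turn. Of the markers of other cells none reached a lowest array level of 8. The 3 NK cell and the 2 erythroid markers lay under 4. So did 2 of the B cell, 2 of the myeloid and 1 of the gamma delta T cell markers. Adgre1, Eomes and Klra8 were among the markers under 4. The part of these markers in the CD3 values was not tested.

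Kinases and phosphatases act first on the receptor. In RORγt deficiency in DMSO 5 of 8 of their genes and their partners stood above 0 (median 0.07, from -0.20 to 0.20), and with digoxin in wildtype cells 4 of 8 (median -0.05, from -0.22 to 0.28). Zap70 stood at -0.03 and 0.03 on the 2 wildtype DMSO arrays, 0.13 and -0.01 in wildtype digoxin, 0.02 and -0.02 in deficient DMSO and 0.23 and -0.09 in deficient digoxin. Values of this kinase, the first to bind the phosphorylated CD3 chains, overlapped between all groups. The difference for Zap70 was -0.0012 ± 0.13 in RORγt deficiency (95% interval -0.28 to 0.28, limma adjusted p = 0.999) and 0.06 ± 0.13 with digoxin in wildtype cells (-0.22 to 0.34, adjusted p = 0.945). The 3 probe sets of Zap70 ranged from -0.0012 to 0.19 in RORγt deficiency and from 0.06 to 0.21 with digoxin. Pag1 stood at -0.04 and 0.04 on the 2 wildtype DMSO arrays, 0.17 and 0.40 in wildtype digoxin, 0.09 and 0.27 in deficient DMSO and 0.12 and 0.44 in deficient digoxin. Pag1 encodes the membrane adaptor that anchors the inhibitory kinase CSK. Its difference was 0.18 ± 0.14 in RORγt deficiency (-0.13 to 0.48, limma adjusted p = 0.715), and 0.28 ± 0.14 with digoxin in wildtype cells (-0.02 to 0.59, adjusted p = 0.746). Its 4 probe sets disagreed, with values from -0.37 to 0.18 in RORγt deficiency and from -0.23 to 0.28 with digoxin.

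Fyn, a Src family kinase, stood at 0.12 ± 0.10 in RORγt deficiency and 0.02 ± 0.10 with digoxin. Txk, a Tec family kinase, stood at -0.20 ± 0.12 and -0.15 ± 0.12, and Csk at -0.03 ± 0.11 and -0.10 ± 0.11. Ptprc, which encodes the phosphatase CD45, stood at 0.20 ± 0.12 in RORγt deficiency and -0.22 ± 0.12 with digoxin in wildtype cells. Its other probe set stood at 0.06 and -0.0023 in these comparisons. The inhibitory phosphatase genes Ptpn22 (0.14 ± 0.12 and -0.11 ± 0.12) and Ptpn6, which encodes SHP-1 (0.01 ± 0.10 and 0.01 ± 0.10), were not called either. Ptpn6 had the smallest range of the 52 genes over the 8 arrays, 0.07.

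Among the adaptors and effectors, 4 of 10 stood above 0 in RORγt deficiency (median -0.01, from -0.37 to 0.23) and 2 of 10 with digoxin in wildtype cells (median -0.06, from -0.42 to 0.29). Themis stood at -0.01 and 0.01 on the 2 wildtype DMSO arrays, 0.29 and 0.29 in wildtype digoxin, 0.23 and 0.22 in deficient DMSO and 0.30 and 0.29 in deficient digoxin. Themis encodes a protein needed for thymocyte selection that tunes phosphatase activity near the receptor, and its 6 other arrays all lay above both control arrays within a narrow band. The difference for Themis was 0.23 ± 0.10 in RORγt deficiency (95% interval 0.01 to 0.44, limma adjusted p = 0.455) and 0.29 ± 0.10 with digoxin in wildtype cells (0.07 to 0.50, adjusted p = 0.579). The 4 probe sets of Themis ranged from 0.11 to 0.39 in RORγt deficiency and from -0.01 to 0.33 with digoxin.

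Sos1 stood at 0.24 and -0.24 on the 2 wildtype DMSO arrays, -0.39 and -0.46 in wildtype digoxin, -0.35 and -0.25 in deficient DMSO and -0.45 and -0.51 in deficient digoxin. Sos1, which encodes the exchange factor that loads Ras with GTP, was lower on all 6 other arrays than on either control array, but the control arrays themselves lay far apart. Its difference was -0.30 ± 0.15 in RORγt deficiency (-0.63 to 0.03, limma adjusted p = 0.525), and -0.42 ± 0.15 with digoxin in wildtype cells (-0.75 to -0.10, adjusted p = 0.6). Its 5 probe sets ranged from -0.30 to 0.15 and from -0.42 to -0.06 in these comparisons. Tespa1 stood at -0.02 and 0.02 on the 2 wildtype DMSO arrays, -0.32 and -0.42 in wildtype digoxin, -0.64 and -0.11 in deficient DMSO and -0.51 and -0.76 in deficient digoxin. The deficient DMSO arrays of Tespa1, a regulator of receptor-induced calcium release, differed widely. The difference for Tespa1 was -0.37 ± 0.17 in RORγt deficiency (95% interval -0.75 to -0.0032, limma adjusted p = 0.48) and -0.37 ± 0.17 with digoxin in wildtype cells (-0.74 to 0.0011, adjusted p = 0.713). The other 2 probe sets of Tespa1 stood at -0.12 and 0.02 in RORγt deficiency and at -0.20 and -0.21 with digoxin. The core adaptor and effector genes Lat (-0.14 ± 0.10), Lcp2, which encodes SLP-76 (0.01 ± 0.11), Plcg1 (-0.01 ± 0.11), Grap2 (-0.02 ± 0.10), Grb2 (0.01 ± 0.10), Sh2d2a (-0.0046 ± 0.10) and Vav1, which encodes an exchange factor for small GTPases (0.12 ± 0.12), were not called in RORγt deficiency. With digoxin in wildtype cells these 7 stood between -0.18 (Lcp2) and 0.24 (Vav1). The other probe set of Lcp2 stood at 0.27 in RORγt deficiency and -0.06 with digoxin. The 3 probe sets of Plcg1, the phospholipase, ranged from -0.11 to 0.42 in RORγt deficiency and from -0.12 to 0.20 with digoxin.

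**Figure D3:**
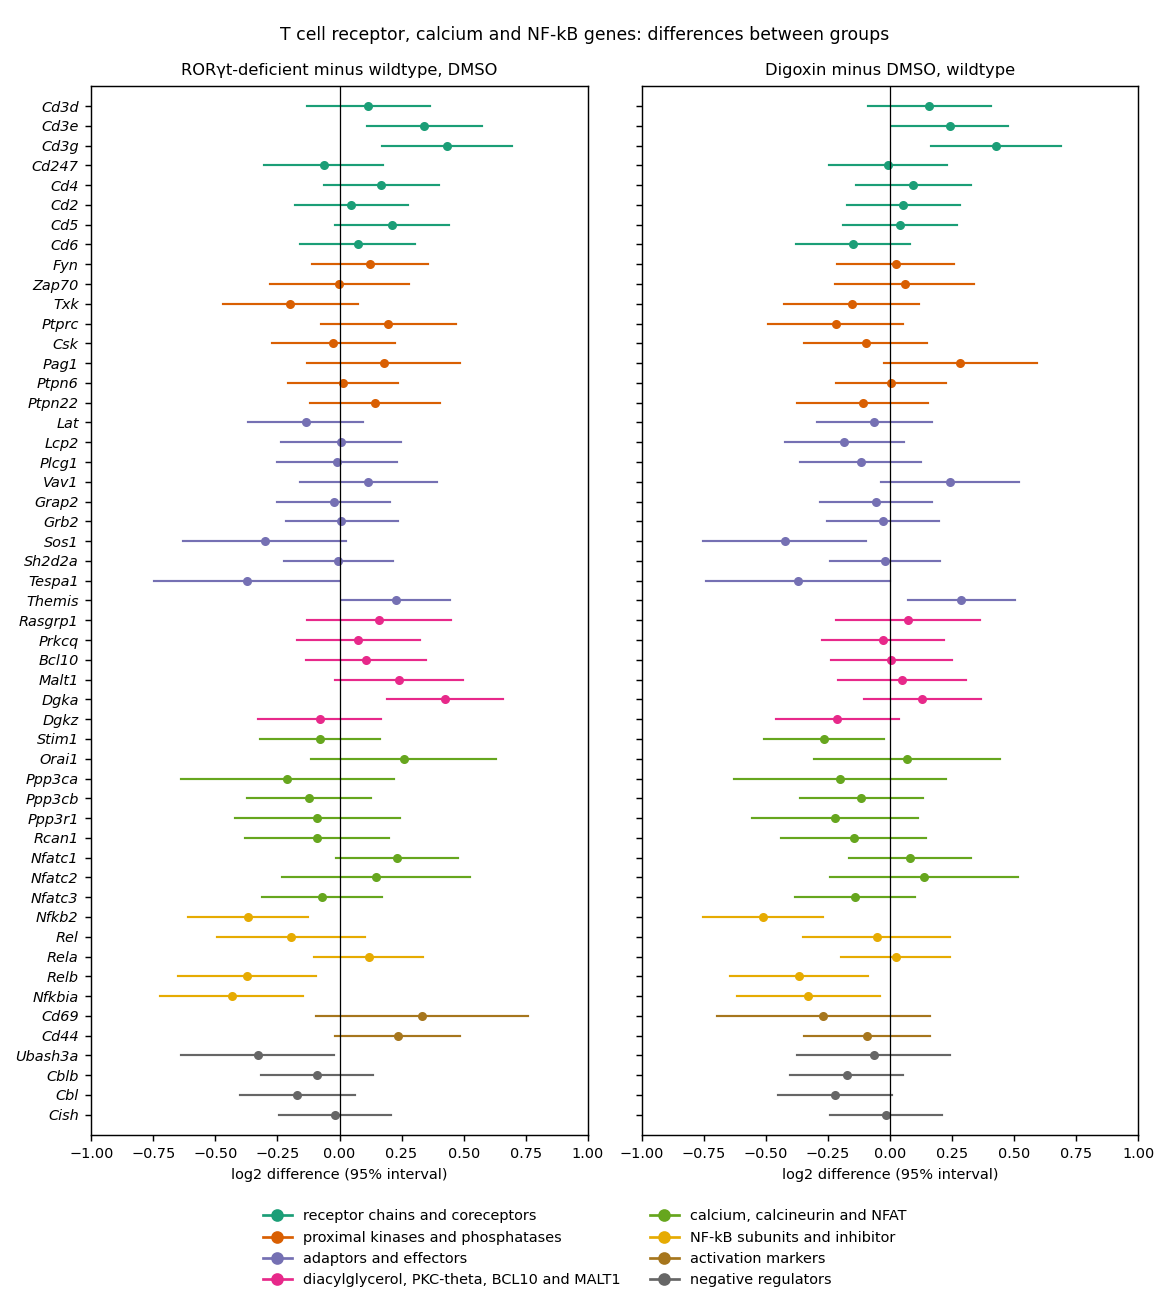
Log2 difference (horizontal axis) of each of the 52 genes (rows, coloured by role) with its 95% interval, for RORγt deficiency in DMSO (left) and digoxin in wildtype cells (right). All intervals lie within 1 log2 unit of 0; those of Nfkb2, Relb and Nfkbia lie below 0 and those of Cd3e, Cd3g and Themis above 0 in both panels, before any adjustment for the number of genes.

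Diacylglycerol is read by the Ras exchange factor RasGRP1 and by PKC-θ, and is removed by diacylglycerol kinases. Dgka stood at -0.04 and 0.04 on the 2 wildtype DMSO arrays, 0.13 and 0.13 in wildtype digoxin, 0.34 and 0.51 in deficient DMSO and 0.32 and 0.37 in deficient digoxin. Dgka, the gene of diacylglycerol kinase α, was highest on the 4 RORγt-deficient arrays, in DMSO and in digoxin, and its wildtype digoxin arrays lay between those and the controls. Its difference was 0.42 ± 0.11 in RORγt deficiency (0.19 to 0.66, limma adjusted p = 0.125), and 0.13 ± 0.11 with digoxin in wildtype cells (-0.10 to 0.37, adjusted p = 0.838). Under digoxin the deficient cells stood 0.21 ± 0.11 above the wildtype cells (adjusted p = 0.945). Dgkz, the gene of the ζ form, stood at -0.08 ± 0.11 in RORγt deficiency and -0.21 ± 0.11 with digoxin in wildtype cells. Rasgrp1 stood at 0.16 ± 0.13 and 0.07 ± 0.13, and Prkcq, which encodes PKC-θ, at 0.08 ± 0.11 and -0.03 ± 0.11. The 4 probe sets of Rasgrp1 ranged from 0.16 to 0.46 in RORγt deficiency and from 0.03 to 0.15 with digoxin. The genes of the proteins BCL10 and MALT1 stood at 0.11 ± 0.11 and 0.24 ± 0.12 in RORγt deficiency and at 0.01 ± 0.11 and 0.05 ± 0.12 with digoxin. In this group of 6 genes, 5 stood above 0 in RORγt deficiency (median 0.13) and 4 with digoxin (median 0.03).

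Of the 9 calcium, calcineurin and NFAT genes, 6 stood below 0 in RORγt deficiency in DMSO (median -0.08, from -0.21 to 0.26) and 6 with digoxin in wildtype cells (median -0.14, from -0.27 to 0.14). Stim1 stood at 0.05 and -0.05 on the 2 wildtype DMSO arrays, -0.25 and -0.29 in wildtype digoxin, -0.08 and -0.08 in deficient DMSO and -0.40 and -0.21 in deficient digoxin. Stim1 encodes the sensor of calcium in the endoplasmic reticulum, and both digoxin groups lay below both DMSO groups. The difference for Stim1 was -0.08 ± 0.11 in RORγt deficiency (95% interval -0.32 to 0.16, limma adjusted p = 0.861) and -0.27 ± 0.11 with digoxin in wildtype cells (-0.51 to -0.02, adjusted p = 0.687). In RORγt-deficient cells the digoxin difference was -0.23 ± 0.11 (adjusted p = 1.0). The other probe set of Stim1 stood at 0.13 with digoxin in wildtype cells and 0.01 in deficient cells, so the 2 probe sets disagreed in sign. Orai1, the pore subunit gene of the calcium channel, stood at 0.26 ± 0.17 in RORγt deficiency and 0.07 ± 0.17 with digoxin in wildtype cells.

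The genes of the calcineurin subunits, Ppp3ca, Ppp3cb and Ppp3r1, stood at -0.21 ± 0.19, -0.12 ± 0.11 and -0.09 ± 0.15 in RORγt deficiency and at -0.20 ± 0.19, -0.12 ± 0.11 and -0.22 ± 0.15 with digoxin in wildtype cells. The 3 probe sets of Ppp3ca ranged from -0.21 to 0.11 in RORγt deficiency and from -0.20 to 0.05 with digoxin. The 5 of Ppp3cb ranged from -0.47 to -0.02 and from -0.13 to 0.06. Rcan1, a calcineurin inhibitor gene that NFAT itself induces, stood at -0.09 ± 0.13 and -0.15 ± 0.13. Nfatc1 stood at -0.01 and 0.01 on the 2 wildtype DMSO arrays, 0.12 and 0.04 in wildtype digoxin, 0.17 and 0.29 in deficient DMSO and 0.25 and 0.43 in deficient digoxin. Both RORγt-deficient groups of this NFAT gene lay above both wildtype groups. Its difference was 0.23 ± 0.11 in RORγt deficiency (-0.01 to 0.48, limma adjusted p = 0.513), and 0.08 ± 0.11 with digoxin in wildtype cells (-0.17 to 0.32, adjusted p = 0.91). Under digoxin the deficient cells stood 0.26 ± 0.11 above the wildtype cells (adjusted p = 0.899), the only one of the 52 genes at an unadjusted p under 0.05 in that comparison, where 5.51% of all genes were and limma called 0 of the 52 and 0.0055% of all genes. The 5 probe sets of Nfatc1 ranged from -0.02 to 0.23 in RORγt deficiency in DMSO. Nfatc2 and Nfatc3 stood at 0.15 ± 0.17 and -0.07 ± 0.11 in RORγt deficiency and 0.14 ± 0.17 and -0.14 ± 0.11 with digoxin. The 6 probe sets of Nfatc2 ranged from 0.1454 to 0.465 in RORγt deficiency and from -0.07 to 0.36 with digoxin.

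NF-kB dimers are held in the cytoplasm by inhibitors such as IκBα, the product of Nfkbia, until IκB kinase marks the inhibitor for degradation. Nfkbia, Nfkb2 and Relb are themselves known targets of NF-kB. Of the 5 NF-kB genes measured, Nfkb2, Relb, Nfkbia and Rel stood below 0 and Rela above 0 in RORγt deficiency (median -0.37). The signs were the same with digoxin in wildtype cells (median -0.33), a comparison with the same wildtype DMSO arrays. These signs and medians use 1 probe set per gene. The other probe set of Nfkb2 stood at 0.17 in RORγt deficiency and 0.24 with digoxin, so they depend on the probe set taken for Nfkb2. Promoter sequences in the RefSeq table (build GRCm38.p6) were searched for the κB motif, spelled GGG, then NN, then TTTCC, where N is any base, on both strands in the 250 bases before each transcript start. The table held 41 of the 52 genes, and 3 of these, Nfkb2, Nfkbia and Rel, had a match, where 1.65% of all 27025 genes and 1.41% of all 32851 starts had one. Relb was not in the table. The 3 sequences are shown because these genes belong to the group whose medians stood lowest with 1 probe set per gene. The match is in capitals, 5′ to 3′ on the strand of the gene. A second start of Nfkb2 also had a match, at -225 from that start, and its sequence is not printed.

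Nfkb2, chr19:46304487-46304736, plus strand: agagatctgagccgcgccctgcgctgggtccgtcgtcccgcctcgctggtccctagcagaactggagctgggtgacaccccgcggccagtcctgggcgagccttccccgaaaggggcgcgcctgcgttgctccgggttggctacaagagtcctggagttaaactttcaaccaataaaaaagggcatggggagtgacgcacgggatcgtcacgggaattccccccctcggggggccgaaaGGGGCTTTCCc
Nfkbia, chr12:55492648-55492897, minus strand: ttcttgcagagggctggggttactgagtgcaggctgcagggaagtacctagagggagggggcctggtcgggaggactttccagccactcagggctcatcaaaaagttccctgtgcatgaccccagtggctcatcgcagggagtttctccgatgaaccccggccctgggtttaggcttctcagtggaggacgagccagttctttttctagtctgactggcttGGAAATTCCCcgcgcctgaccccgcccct
Rel, chr11:23770970-23771219, minus strand: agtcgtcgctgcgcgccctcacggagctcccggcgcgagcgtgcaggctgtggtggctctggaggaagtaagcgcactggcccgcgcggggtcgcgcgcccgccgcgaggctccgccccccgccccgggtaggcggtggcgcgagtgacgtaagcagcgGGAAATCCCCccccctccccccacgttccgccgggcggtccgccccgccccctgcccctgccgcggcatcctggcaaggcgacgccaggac

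Such a match describes the letters of a promoter and is no measured binding site. The motif GGAAAA, the core bound by NFAT, was found before a start of 10 of the 41 genes, where 22.9% of all genes had it. The motif AGGTCA, the core bound by ROR receptors, was found before a start of 5 of the 41, where 15.8% of all genes had it. These 5 were Dgka, Grap2, Lcp2, Vav1 and Zap70.

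Nfkb2 stood at 0.04 and -0.04 on the 2 wildtype DMSO arrays, -0.51 and -0.52 in wildtype digoxin, -0.28 and -0.46 in deficient DMSO and -0.45 and -0.52 in deficient digoxin. Nfkb2, which encodes the p100 precursor of the non-canonical pathway, was lower on all 6 other arrays than on either control array, and the 2 wildtype digoxin arrays were nearly equal. The difference for Nfkb2 was -0.37 ± 0.11 in RORγt deficiency (95% interval -0.61 to -0.13, limma adjusted p = 0.212) and -0.51 ± 0.11 with digoxin in wildtype cells (-0.75 to -0.27, adjusted p = 0.202). The other probe set of Nfkb2 stood at 0.17 ± 0.18 in RORγt deficiency and 0.24 ± 0.18 with digoxin, on the opposite side of 0, so the value of this gene rests on 1 of its 2 probe sets. The digoxin effect of Nfkb2 in RORγt-deficient cells was -0.12 ± 0.11, and the difference between the digoxin effects was 0.39 ± 0.15 (adjusted p = 1.0). That made it the 1 gene of 52 at an unadjusted p under 0.05 for this difference, against 3.09% of all genes, and limma called 0 of the 52 and 0% of all genes.

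Relb stood at 0.14 and -0.14 on the 2 wildtype DMSO arrays, -0.38 and -0.35 in wildtype digoxin, -0.48 and -0.27 in deficient DMSO and -0.54 and -0.55 in deficient digoxin. Relb encodes the partner of the NFKB2 product, and its 6 other arrays also lay below both control arrays. Its difference was -0.37 ± 0.12 in RORγt deficiency (-0.65 to -0.10, limma adjusted p = 0.29), and -0.37 ± 0.12 with digoxin in wildtype cells (-0.65 to -0.09, adjusted p = 0.586). Nfkbia stood at 0.06 and -0.06 on the 2 wildtype DMSO arrays, -0.34 and -0.32 in wildtype digoxin, -0.35 and -0.52 in deficient DMSO and -0.35 and -0.67 in deficient digoxin. The inhibitor gene likewise lay below both control arrays on the other 6, with deficient digoxin array 2 the lowest of all 8. The difference for Nfkbia was -0.43 ± 0.13 in RORγt deficiency (95% interval -0.72 to -0.15, limma adjusted p = 0.22) and -0.33 ± 0.13 with digoxin in wildtype cells (-0.62 to -0.04, adjusted p = 0.687). Of its 5 probe sets 4 stood between -0.52 and -0.41 in RORγt deficiency and between -0.66 and -0.33 with digoxin in wildtype cells. When every probe set was tested on its own, the lowest adjusted p of an Nfkbia probe set was 0.08 in RORγt deficiency and 0.0823 with digoxin, and 0 of the 121 probe sets of the 52 genes were called by limma in any comparison; at an unadjusted p under 0.05 there were 20 of the 121 (16.5%) in RORγt deficiency and 13 (10.7%) with digoxin, against 9.9% and 6.66% of the 34945 probe sets tested. The fifth probe set of Nfkbia stood at 0.11 ± 0.44 and -0.07 ± 0.44, with a larger error than the other 4. Rel, the gene of c-Rel, stood at -0.20 ± 0.13 in RORγt deficiency and -0.05 ± 0.13 with digoxin, and Rela, the gene of p65, at 0.12 ± 0.10 and 0.02 ± 0.10.

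**Figure D4:**
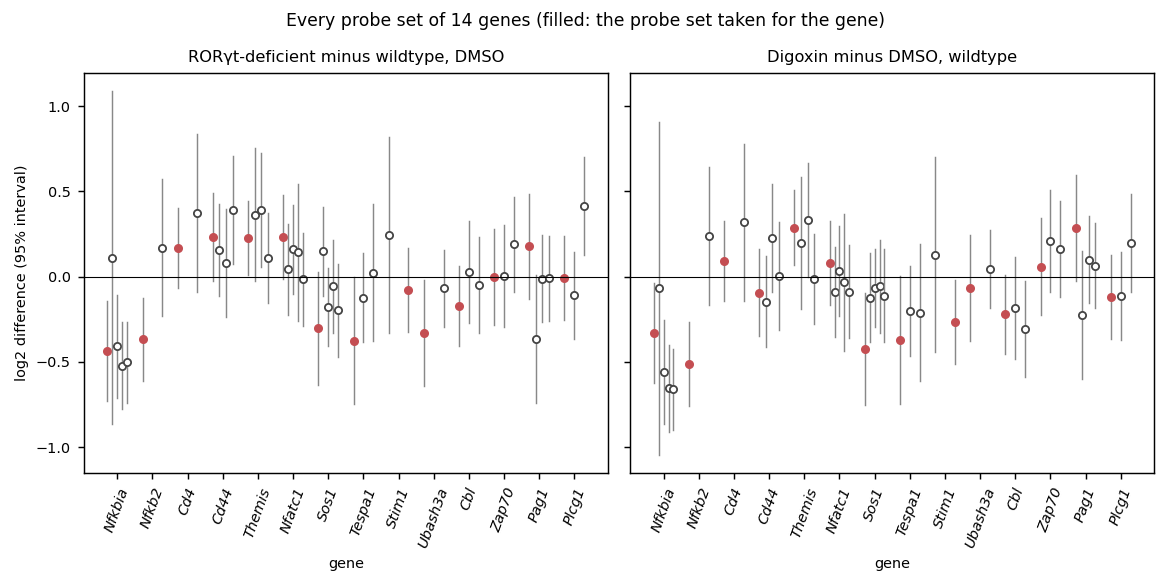
Log2 difference (vertical axis) with its 95% interval for every probe set of 14 genes, for RORγt deficiency in DMSO (left) and digoxin in wildtype cells (right); filled points mark the probe set taken for the gene. Of the 5 probe sets of Nfkbia 4 lie between -0.52 and -0.41 on the left, whereas the 2 probe sets of Nfkb2 lie on opposite sides of 0 in both panels.

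Cd69 stood at -0.11 and 0.11 on the 2 wildtype DMSO arrays, -0.03 and -0.51 in wildtype digoxin, 0.59 and 0.08 in deficient DMSO and 0.07 and 0.02 in deficient digoxin. Cd69, an early activation marker, had the widest range of the 52 genes over the 8 arrays, 1.09; array 1 of the deficient DMSO group and array 2 of the wildtype digoxin group stood apart from their partners. Its difference was 0.33 ± 0.19 in RORγt deficiency (-0.10 to 0.76, limma adjusted p = 0.608), and -0.27 ± 0.19 with digoxin in wildtype cells (-0.70 to 0.16, adjusted p = 0.819). Cd44 stood at 0.04 and -0.04 on the 2 wildtype DMSO arrays, -0.05 and -0.13 in wildtype digoxin, 0.35 and 0.12 in deficient DMSO and 0.14 and 0.07 in deficient digoxin. The adhesion receptor gene Cd44, a marker of activated and memory T cells, was highest in deficient DMSO array 1, and its wildtype digoxin arrays were the 2 lowest of the 8. The difference for Cd44 was 0.23 ± 0.11 in RORγt deficiency (95% interval -0.02 to 0.49, limma adjusted p = 0.525) and -0.09 ± 0.11 with digoxin in wildtype cells (-0.35 to 0.16, adjusted p = 0.897). The 4 probe sets of Cd44 ranged from 0.08 to 0.39 in RORγt deficiency.

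The negative regulators were the ubiquitin ligase genes Cbl and Cblb, the phosphatase-like gene Ubash3a and Cish, a cytokine-induced SH2 protein gene. All 4 stood below 0 in RORγt deficiency in DMSO (median -0.13) and with digoxin in wildtype cells (median -0.12). Ubash3a stood at -0.11 and 0.11 on the 2 wildtype DMSO arrays, -0.04 and -0.09 in wildtype digoxin, -0.42 and -0.24 in deficient DMSO and -0.15 and -0.48 in deficient digoxin. Both deficient groups of Ubash3a lay below both wildtype groups. Its difference was -0.33 ± 0.14 in RORγt deficiency (-0.64 to -0.02, limma adjusted p = 0.445), and -0.06 ± 0.14 with digoxin in wildtype cells (-0.37 to 0.24, adjusted p = 0.947). Its other probe set stood at -0.07 and 0.04. Cbl stood at -0.04 and 0.04 on the 2 wildtype DMSO arrays, -0.16 and -0.28 in wildtype digoxin, -0.19 and -0.15 in deficient DMSO and -0.29 and -0.22 in deficient digoxin. Each of the 6 other arrays of Cbl lay below both control arrays. The difference for Cbl was -0.17 ± 0.10 in RORγt deficiency (95% interval -0.40 to 0.06, limma adjusted p = 0.634) and -0.22 ± 0.10 with digoxin in wildtype cells (-0.45 to 0.01, adjusted p = 0.734). The 3 probe sets of Cbl ranged from -0.17 to 0.03 in RORγt deficiency and from -0.31 to -0.18 with digoxin. Cblb stood at -0.09 ± 0.10 and -0.17 ± 0.10 in these comparisons, and Cish at -0.02 ± 0.10 and -0.02 ± 0.10.

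**Figure D5:**
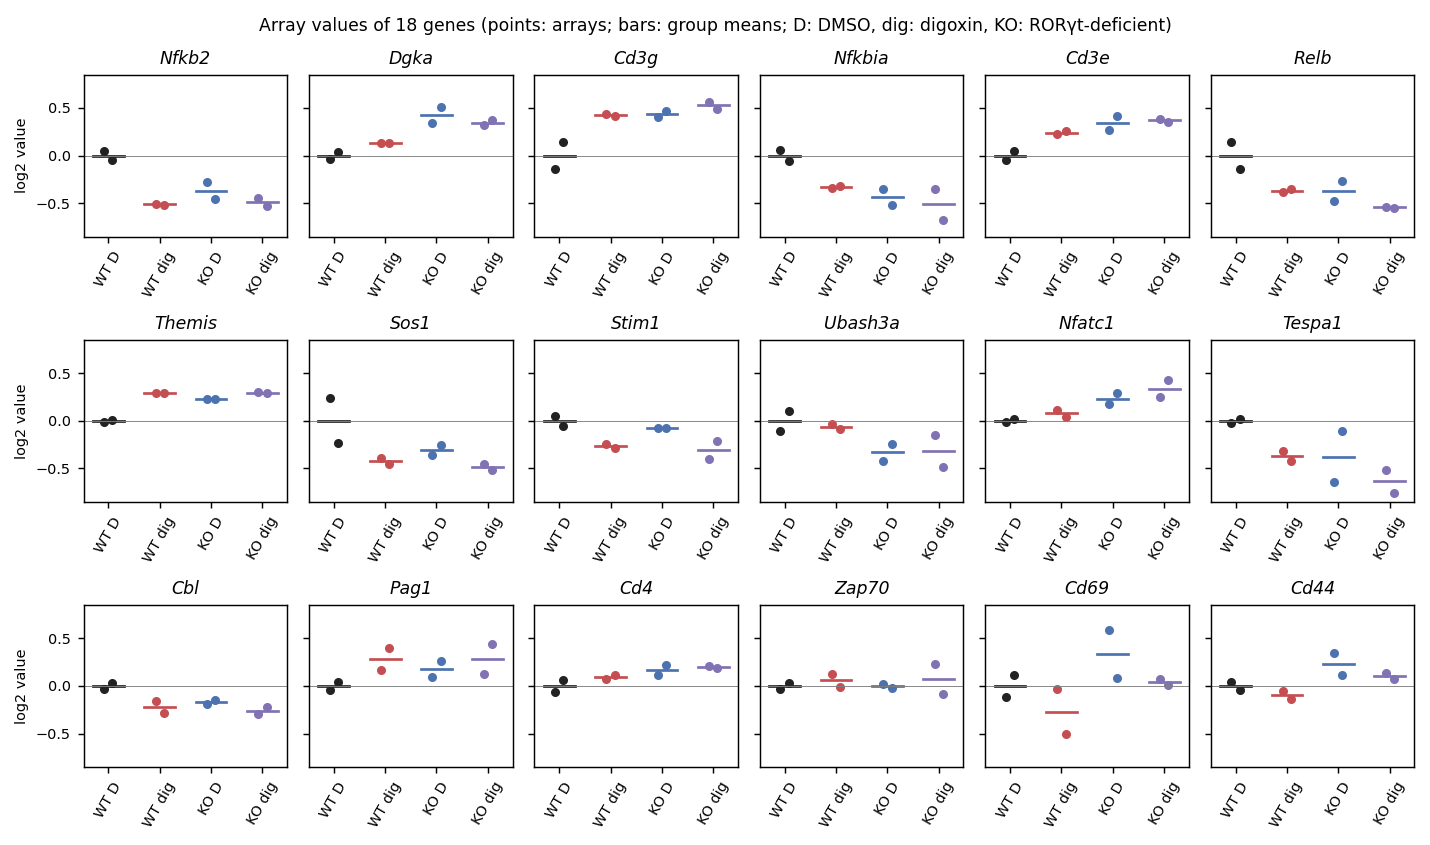
Log2 values (vertical axis, relative to the wildtype DMSO average) of 18 genes on each array (points, 2 per group) with the group mean (bar). WT D is wildtype DMSO, WT dig wildtype digoxin, KO D RORγt-deficient DMSO and KO dig RORγt-deficient digoxin; Nfkb2 lies between -0.52 and -0.28 on the 6 arrays outside wildtype DMSO and Cd3g between 0.40 and 0.57.

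Digoxin in RORγt-deficient cells gave the smallest median size of a difference of the 5 comparisons for these genes, 0.06, beside 0.08 over all genes. Limma called 0 of the 52 (0.0055% of all genes), 0 had an unadjusted p under 0.05 (3.51% of all genes), and the smallest adjusted p was 1.0. Values ran from -0.29 (Cd69) to 0.10 (Nfatc1), with a median of -0.01. The groups of this comparison did not overlap for 15 of the 52 genes, or 28.8%, against 28.4% of all genes. In RORγt deficiency in DMSO they did not overlap for 29 of 52 (55.8%, against 41.8% of all genes), with digoxin in wildtype cells for 29 (55.8%, against 37.7%), and in RORγt deficiency under digoxin for 27 (51.9%, against 31% of all genes). Under digoxin 34 of the 52 genes stood above 0 in the deficient cells, and the values ran from -0.27 (Tespa1) to 0.31 (Cd69).

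Further genes of the same pathways, 114 measured of a second list, were read in the same way. Limma called 0 of 114 in each of the 5 comparisons, where it called at most 1.05% of all genes. At an unadjusted p under 0.05 there were 19 in RORγt deficiency in DMSO (16.7%, 10 above and 9 below 0, beside 10.3% of all genes) and 10 with digoxin in wildtype cells (8.77%, 2 above and 8 below, beside 6.99% of all genes). In RORγt deficiency those above 0 were 8.77% (4.25% of all genes) and those below 7.89% (6.08%). With digoxin those above 0 were 1.75% (3.61% of all genes) and those below 7.02% (3.39%). The other comparisons held 1, 3 and 3 (0.877%, 2.63% and 2.63%, each below the 3.51%, 3.09% and 5.51% of all genes), named after their values were seen: Trat1, an adaptor gene (-0.33 ± 0.11), with digoxin in deficient cells; Cabin1, Dusp6 and Nck1 for the difference of the digoxin effects; and Nck1, Trat1 (-0.28 ± 0.11) and Prkca, a protein kinase C gene (0.26 ± 0.11), in RORγt deficiency under digoxin. The smallest p-values were those of Dusp2, Cabin1, Dusp6 and Nck1. Dusp2 and Dusp6, phosphatases of MAP kinases that the pathway itself induces, stood at 0.52 ± 0.11 (adjusted p = 0.0726) and 0.57 ± 0.13 (adjusted p = 0.0971) in RORγt deficiency and at 0.36 ± 0.11 and 0.42 ± 0.13 with digoxin in wildtype cells (adjusted p = 0.54 for both). Dusp6 stood at -0.11 and 0.11 on the wildtype DMSO arrays, at 0.49 and 0.36 with digoxin in wildtype cells, 0.63 and 0.52 in deficient DMSO and 0.71 and 0.42 in deficient digoxin, with no overlap between the controls and the other 6 arrays.

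Cabin1, which encodes an inhibitor of calcineurin, stood at -0.54 ± 0.12 in RORγt deficiency (adjusted p = 0.0928) and -0.46 ± 0.12 with digoxin in wildtype cells (adjusted p = 0.416). Nck1, an adaptor gene, stood at -0.51 ± 0.13 in RORγt deficiency under digoxin (adjusted p = 0.391). The medians of 4 groups in this list were -0.09 for adaptors and kinases next to the receptor, -0.0048 for Ras and MAP kinases, 0.05 for calcium and calcineurin genes and -0.06 for ubiquitin ligases and diacylglycerol enzymes in RORγt deficiency.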

How the data were processed

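The deposited file holds log2 expression of 45101 probe sets, made by the authors with RMA per the submitters' processing notes; the series text names GeneSpring GX 11.5. The values of the 2 wildtype DMSO arrays sum to 0 within 1e-06, so each probe set was centred on their mean, a step no label records. Of the probe sets, 34945 had 1 gene symbol in the platform annotation, 932 had several and were left out, and 1 per gene was taken by suffix (_at, _a_at, _s_at, _x_at), then identifier. The reading of levels from the stored step was right for 98.4% of 2000 simulated probe sets.

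All 18193 genes were fitted with limma 3.58.1 in R 4.3.3 (4 group means, 8 arrays, 4 residual and 5.8 prior degrees of freedom, two-sided tests). Benjamini-Hochberg adjustment ran over all genes of a comparison, and an adjusted p under 0.05 was a call. Precision is limited by the 2 arrays of a group. The fit was tested on simulated data. Members and lists were chosen with earlier results of these data known. Genes shown array by array are the 14 with the smallest p in any comparison, and Cd4, Zap70, Cd69 and Cd44. Of the second list, those called or the 4 with the smallest p were named. The median of 1 group of that list is not reported here.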

Additional observations from a re-analysis of the deposited data

How the results depend on the processing

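In 89 further fits, over 18 alternative settings and the 5 comparisons, limma called 0 of the 52 genes in each, and the lowest adjusted p was 0.0627, for Dgka. For the difference of the digoxin effects, fitting the compared groups alone equals the fit of all arrays and was not run. The other settings were quantile normalisation, array medians, the mean of a gene's probe sets, every probe set, genes with a lowest level of at least 4, the compared groups alone, array weights, a robust spread, a replicate block and leaving out each array; an array's removal leaves its group with 1 array, assumed to vary like the other groups. At an unadjusted p under 0.05, counts added after seeing the data, the 9 genes of RORγt deficiency in DMSO became 4 after quantile normalisation and 4 to 9 without single arrays, and the 8 of digoxin in wildtype cells became 5 and 3 to 9; the shares of all genes at these settings, which moved too, stand beside the counts above. Every difference rests on 2 arrays a group, and signal over background is known only as a range of levels. Titles number the arrays, but deviations of the same number correlated at -0.242 to -0.136 between wildtype DMSO and each other group and at 0.325 to 0.454 among the other 3 groups, so not every pair was above 0.1 and the numbers were not taken as a pairing. With the replicate block 0 of the 52 genes were called in each comparison. With the wildtype DMSO numbers exchanged, chosen after seeing the data, 0 of the 52 were called, 15 were at an unadjusted p under 0.05 in RORγt deficiency (28.8%, beside 15.3% of all genes), and 414 of all genes were called in place of 191. With 1 value per gene, none of the 17 differences of named genes at an unadjusted p under 0.05 in these 2 comparisons changed sign. Some settings, such as the robust spread and the compared groups alone, leave a difference as it was and could not change its sign. In RORγt deficiency, other probe sets of Nfkb2, Nfkbia and Tespa1 stood on the other side of 0. With digoxin, those of Nfkb2, Themis and Stim1 did.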
